A study of Mus musculus with 24 samples.

Results

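Chemokines are small secreted proteins that guide leukocytes along gradients, and their receptors are G protein-coupled receptors on the cells that follow them. The CC and CXC families are named for the spacing of conserved cysteines, and many ligands share receptors. In the liver, resident macrophages, endothelial cells, stellate cells and hepatocytes can make chemokines, and the Ccl2 and Ccr2 pair is known for bringing blood monocytes into fatty liver. The genes described here are the Ccl, Ccr, Cxcl and Cxcr genes with a number in their symbol, with Xcl1 and Xcr1. They were picked out by symbol alone, for a family chosen with earlier results of these data known, and 53 of the 18314 genes of the deposited long RNA table matched. The fractalkine receptor Cx3cr1 does not match the symbol rule and is given with the related genes.

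RNA was taken from the liver of wild-type male C57BL/6 mice. Control animals were fed a normal diet and HFD animals a high-fat diet. HFD plus HQHF animals were fed the high-fat diet and, once 12 weeks had passed, were also given HQHF (Huatanqushihuoxue Formula) by gavage. Groups were of 9 mice, and the labels give neither the dose of HQHF behind these libraries nor the animals' age. Each group had 4 long RNA libraries, with totals of about 33380900 to 46454400 counts, and the labels do not state in words that each library is a separate mouse, so the p-values measure the spread between these libraries.

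Control 2 and HFD plus HQHF 3 went against their liver label. A list of 8 hepatocyte markers summed to 8512 CPM (a gene's share of the library's total counts, scaled to 1000000) in control 2 and 411 in HFD plus HQHF 3, beside 59041 to 124934 in the other 10 libraries, and a list of 6 adipocyte markers to 15187 and 5241 CPM, beside 9.90 to 330 CPM. The comparisons therefore use the other 10 libraries (control 1, 3 and 4, HFD 1 to 4, HFD plus HQHF 1, 2 and 4), and with all 12 libraries none of the 38 chemokine genes then tested passed in any comparison. Over the 13929 genes of that fit, 7 passed in HFD against control, 1 in HFD plus HQHF against HFD and 0 in HFD plus HQHF against control. Among the 10, control 1 had the most of a pancreatic acinar list and HFD 3 the most of the adipocyte list, at 2307 and 234 CPM on the scale used from here on. These CPM are scaled by TMM, which sets libraries to a common level over most genes. The TMM factors were 1.20 to 1.42 in HFD and 0.763 to 0.939 in the other groups, and with library totals in their place the median over all genes of the log2 fold change moved from 0.06 to 0.66 for HFD against control and from -0.07 to -0.62 for HFD plus HQHF against HFD.

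Of the 53 genes, 37 passed the filter on low counts and were tested, namely 15 of 23 CC ligands, 9 of 11 CXC ligands, 6 of 11 CC receptors, 5 of 6 CXC receptors, Xcl1 and Xcr1. The filter asked for 0.227 CPM of the library total in at least 3 libraries. Among the 37, 12 reached it only through HFD libraries (Ccl2, Ccl3, Ccl4, Ccl7, Ccl22, Ccl28, Cxcl2, Cxcl5, Xcl1, Ccr1, Ccr3 and Ccr9), so the main counts, ranges and medians that follow are also given for the other 25. The 16 genes not tested (Ccl1, Ccl8, Ccl11, Ccl12, Ccl17, Ccl20, Ccl21d, Ccl27b, Cxcl3, Cxcl17, Ccr1l1, Ccr4, Ccr6, Ccr8, Ccr10 and Cxcr1) had 3 to 59 reads over the 10 libraries, too few to show a difference here. Ccl20 and Ccl11 had nearly all their reads in HFD libraries. Ccl20, the ligand of Ccr6, had 43, 1, 0 and 2 reads in HFD 1 to 4 and none elsewhere, and Ccl11, an eosinophil chemokine, had 45, 0, 9 and 4 reads there and 1 read in control 1.

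The first comparison asks how the high-fat diet moved these genes. In HFD against control 21 members were higher and 2 were lower (edgeR quasi-likelihood test, adjusted p under 0.05), where 16.3% of all 13832 genes tested were higher and 9.89% lower (26.2% in either direction). In bulk liver RNA fewer cells of a type and less RNA per cell cannot be told apart. The 12 members that passed the filter only through HFD libraries gave 8 of the 21, and the other 25 gave 13 higher and both lower ones. Among the classes, 9 CC ligands, 5 CXC ligands, 5 CC receptors and 2 CXC receptors rose (4, 4, 3 and 2 among the other 25), and 1 CC ligand (Ccl27a) and 1 CXC ligand (Cxcl13) fell. The ranges of the groups did not overlap for 24 members higher in HFD and 2 lower, and for 13 and 2 of the other 25, beside 20.8% and 15.9% of all genes. The median log2 fold change was 1.81 over the 37 and 1.13 over the 25, beside 0.06 over all genes.

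The second comparison asks how mice on the same diet differed once they had received HQHF. Here 12 members were lower and 1 was higher, where 11.1% of all genes were lower and 7.85% higher (18.9% in either direction). Of the 12 that were lower, 7 had passed the filter only through HFD libraries, and the other 25 gave 5 lower and 1 higher. The lower members were Ccl2, Ccl3, Ccl4, Ccl7, Ccl22, Cxcl1, Cxcl2, Cxcl14, Cxcl16, Ccr1, Ccr2 and Cxcr4, and Cxcl13 was higher. Both comparisons use the same 4 HFD libraries, so a high or low value in them enters both with opposite signs, and the values of each are set side by side with no test of how far they match. Ranges did not overlap for 14 members lower and 2 higher, and for 6 and 2 of the other 25, beside 17.2% and 13.5% of all genes. The median log2 fold change was -1.21 over the 37 and -0.89 over the 25, beside -0.07. As a description, in the 21 genes higher in HFD the HFD plus HQHF mean lay between the other groups' means in 15 and under the control mean in 6 (Ccl3, Ccl4, Ccl7, Ccl22, Cxcl2 and Cxcr4). Of these 6, all but Cxcr4 had passed the filter only through HFD libraries. The 21 were called for high values in the same HFD libraries, so a lower mean with HQHF is in part built into this count.

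**Figure D1:**
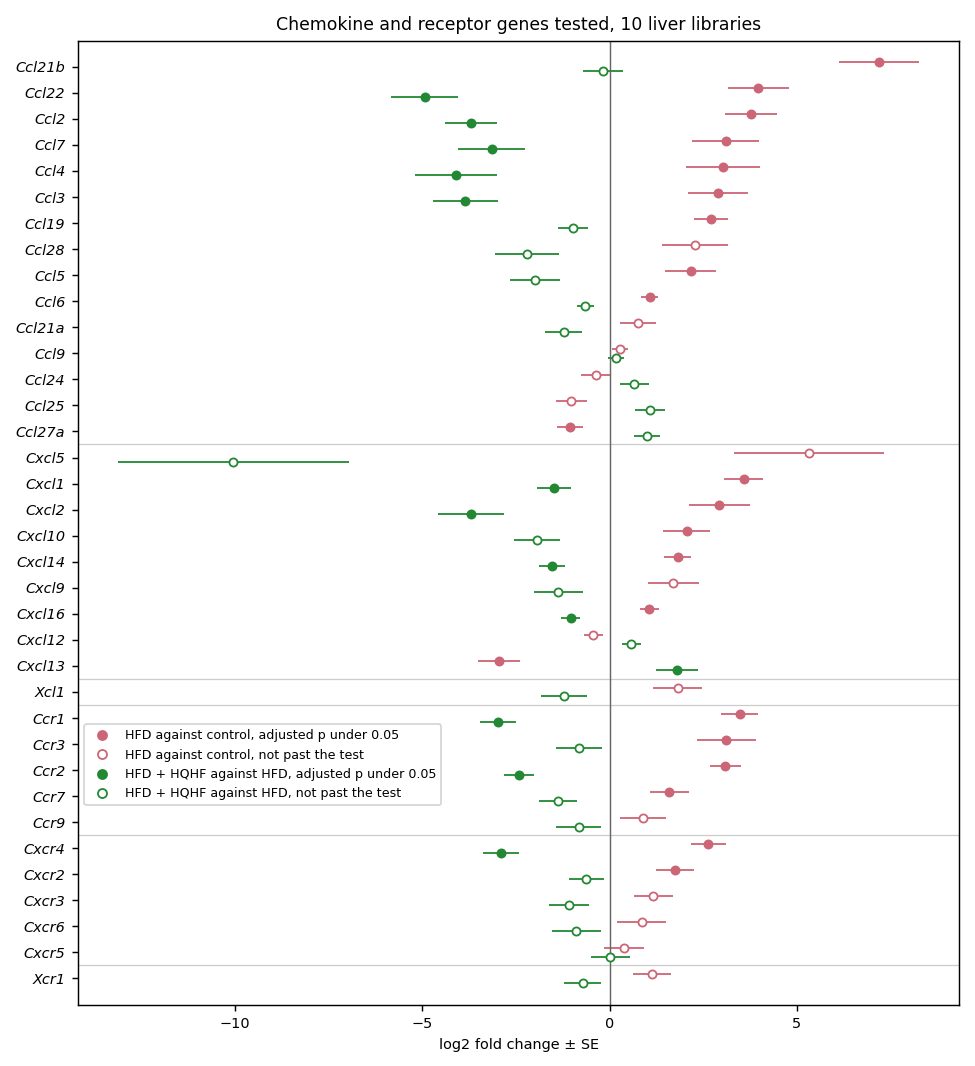
Log2 fold change (x axis, with its SE as bars) of 36 of the 37 tested genes (y axis, in blocks by class) for HFD against control and for HFD plus HQHF against HFD, filled where the adjusted p was under 0.05. The filled points lie to the right for 20 genes in the first comparison and to the left for 12 in the second. The far points of Ccl21b and Cxcl5 are fitted values against a group with no read and are not sizes.

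Among the CC ligands, the monocyte attractants Ccl2 and Ccl7 rose in HFD and fell with HQHF. Ccl2 (ENSMUSG00000035385), the main ligand of Ccr2, stood at 0.184, 0.308 and 0.222 CPM in control 1, 3 and 4, at 6.90, 2.52, 1.78 and 2.01 CPM in HFD 1 to 4, and at 0.172, 0.496 and 0.0784 CPM in HFD plus HQHF 1, 2 and 4. Every HFD library was above every library of the other groups, and HFD 1 was the highest. Its log2 fold change was 3.78 ± 0.69 (SE) for HFD against control (edgeR adjusted p = 0.00604) and -3.71 ± 0.69 for HFD plus HQHF against HFD (adjusted p = 0.00881). Without HFD 1 both calls held at 3.13 and -3.07, and without HFD plus HQHF 2 the fall was -4.70. Its neighbour Ccl7, another Ccr2 ligand, stood at 0.0751 ± 0.022 CPM in control (SD, n = 3), 0.654 ± 0.613 in HFD (n = 4) and 0.0696 ± 0.066 with HQHF (n = 3). Its log2 fold changes were 3.09 ± 0.90 and -3.16 ± 0.90 (edgeR adjusted p = 0.0295 and 0.0348). Without HFD 1, which had the highest value at 1.57 CPM, the rise was 2.19 and did not pass, and it was also lost without any 1 of the 3 controls, at up to 3.27. The fall did not pass without any 1 of control 3 or 4, HFD 1 or the 3 HFD plus HQHF libraries, at -3.92 to -2.25.

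Ccl3 and Ccl4 are the macrophage inflammatory proteins, made by activated myeloid cells. Ccl3 (ENSMUSG00000000982) stood at 0.131, 0.154 and 0.0317 CPM in control 1, 3 and 4, at 1.97, 0.349, 0.274 and 0.670 in HFD 1 to 4, and at 0.0574, 0.0522 and 0.0523 in HFD plus HQHF 1, 2 and 4. HFD was above the others in every library, with a log2 fold change of 2.89 ± 0.80 against control and -3.85 ± 0.88 with HQHF (edgeR adjusted p = 0.0252 and 0.0163). Without HFD 1, the highest library, they were 1.98 and -2.94 and still passed. Its rise did not pass without any 1 of the 3 controls (2.49 to 3.17), nor its fall without any 1 of the 3 HFD plus HQHF libraries (-3.89 to -3.82). Ccl4 was at 0.0948 ± 0.090 CPM in control, 0.817 ± 0.809 in HFD and 0.0452 ± 0.041 with HQHF (SD, n = 3, 4 and 3), a log2 fold change of 3.02 ± 0.99 and then -4.10 ± 1.10 (SE, edgeR adjusted p = 0.0444 and 0.0286). Ccl5 (ENSMUSG00000035042), which T cells and NK cells also make, stood at 1.18, 0.718 and 0.952 CPM in control, at 10.5, 1.47, 1.31 and 3.70 in HFD, and at 1.15, 1.12 and 0.915 with HQHF, in the same order of libraries. HFD 2 and HFD 3 were only just above the control libraries, and HFD 1 carried most of the mean. Its log2 fold change was 2.16 ± 0.68 against control (edgeR adjusted p = 0.0405), 1.19 without HFD 1 (adjusted p = 0.079), and -2.00 ± 0.67 with HQHF, which did not pass (adjusted p = 0.06). The rise of Ccl5 was also lost without any 1 of the controls, HFD 4 or the HFD plus HQHF libraries, at up to 2.34. The rise of Ccl4 was lost without any 1 of the controls, HFD 1, or HFD plus HQHF 1 or 2 (2.04 to 3.75), and its fall without any 1 of HFD 1 or the HFD plus HQHF libraries (-4.74 to -3.12).

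Ccl22, a ligand of Ccr4 made by dendritic cells and macrophages, stood at 0.184, 0.0513 and 0.0952 CPM in control, at 2.89, 1.14, 0.764 and 2.27 in HFD and at 0.144, 0.0261 and 0 with HQHF. No library of HFD overlapped another group. Its log2 fold changes of 3.97 ± 0.81 and -4.94 ± 0.89 (edgeR adjusted p = 0.00847 and 0.00791) kept their call without any 1 library, at 3.55 to 4.56 and -6.80 to -4.35. Ccl6, a myeloid CC ligand found in rodents, was more evenly spread, at 9.03, 7.66 and 6.73 CPM in control, 20.6, 12.1, 17.6 and 15.1 in HFD, and 12.9, 10.3 and 7.95 with HQHF. HFD was above control in every library and overlapped HFD plus HQHF. Ccl6 rose by 1.07 ± 0.22 on the log2 scale (edgeR adjusted p = 0.00913), and with HQHF its log2 fold change of -0.65 ± 0.22 did not pass (adjusted p = 0.0581). Its neighbour Ccl9 gave 0.28 ± 0.21 and 0.16 ± 0.20 and passed in neither, and with library totals it was called higher in HFD at 0.86.

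Ccl19 and Ccl21 are the Ccr7 ligands that lead dendritic cells and naive T cells to lymph nodes. Ccl19 stood at 0.210, 0.128 and 0.254 CPM in control, at 1.55, 1.16, 0.804 and 1.65 in HFD, and at 0.574, 0.522 and 0.863 with HQHF. All 3 HFD plus HQHF libraries lay above all 3 controls, and HFD plus HQHF 4 lay within the HFD range. Ccl19 rose by 2.70 ± 0.44 on the log2 scale in HFD (edgeR adjusted p = 0.00398), and with HQHF its log2 fold change was -0.98 ± 0.40 (adjusted p = 0.0999). Ccl21b had no read in the 3 controls, 33, 9, 20 and 29 reads in HFD and 11, 16 and 14 reads with HQHF. Against 3 reads over the control group it was at least 15.1-fold higher in HFD (edgeR adjusted p = 0.00408). Ccl21a, Ccl21b and Ccl21d are near-identical copies between which reads can be split, and all 38 reads of Ccl21d were in control 1. Summed, the copies had 1.59 ± 1.14 CPM in control, 2.53 ± 0.991 in HFD and 1.26 ± 0.326 with HQHF (SD, n = 3, 4 and 3). Their log2 fold change was then 0.67 ± 0.51 (edgeR adjusted p = 0.344), so the rise of Ccl21b did not hold for the summed copies.

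One CC ligand was lower in HFD. Ccl27a, a ligand of Ccr10, stood at 1.76, 4.43 and 4.16 CPM in control, 1.46, 1.56, 1.96 and 1.60 in HFD, and 3.07, 4.64 and 2.14 with HQHF. Control 1 lay within the HFD range. Ccl27a fell by 1.07 ± 0.35 on the log2 scale (edgeR adjusted p = 0.0437). It passed under 8 of 19 alternative settings, and not without any 1 of control 3 or 4, HFD 1, 2 or 4, or HFD plus HQHF 1 (-1.07 to -0.91), nor with library totals (-0.45). Its copy Ccl27b had reads in HFD 3 only (11), so the value is uncertain to that extent. The other CC ligands tested and Xcl1, which draws Xcr1-bearing dendritic cells, passed in neither comparison. Their log2 fold changes in HFD and then with HQHF were 0.75 and -1.23 for Ccl21a, -0.37 and 0.66 for Ccl24, an eosinophil chemokine, -1.02 and 1.07 for Ccl25, the Ccr9 ligand, 2.28 and -2.21 for Ccl28, a mucosal Ccr10 ligand, and 1.81 and -1.21 for Xcl1.

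The CXC ligands that bind Cxcr2 and attract neutrophils are Cxcl1, Cxcl2 and Cxcl5, which lie in a cluster with Cxcl3 in the mouse genome. Cxcl1 (ENSMUSG00000029380) stood at 0.525, 0.743 and 0.666 CPM in control 1, 3 and 4, at 14.2, 7.37, 5.61 and 3.82 in HFD 1 to 4, and at 3.45, 3.47 and 1.33 in HFD plus HQHF 1, 2 and 4. The 3 groups did not overlap, with HFD plus HQHF in the middle. The log2 fold change was 3.58 ± 0.52 for HFD against control (edgeR adjusted p = 0.00323) and -1.49 ± 0.46 for HFD plus HQHF against HFD (adjusted p = 0.0453). The second call was lost without any 1 of control 1, 3 or 4, HFD 1 or 2, or HFD plus HQHF 1, 2 or 4, with log2 fold changes from -1.03 to -1.69. Cxcl2 stood at 0.158, 0.0769 and 0.286 CPM in control, 3.18, 1.12, 0.333 and 0.619 in HFD and 0.0574, 0.0782 and 0.157 with HQHF. HFD 3 was close to control 4, and no HFD library was inside another group's range. Cxcl2 rose by 2.93 ± 0.82 in HFD and fell by 3.70 ± 0.87 with HQHF on the log2 scale (edgeR adjusted p = 0.0263 and 0.0182). The rise did not pass without any 1 of the controls or HFD 1 (2.01 to 3.45), nor the fall without HFD plus HQHF 1 or 2 (-3.45 and -3.56), and without HFD 1 the fall was -2.78 and passed. Cxcl5 had 605 reads in HFD 1, 13, 13 and 30 in HFD 2 to 4, 8 in the controls together and none with HQHF. It passed in neither comparison (edgeR adjusted p = 0.0877 and 0.0588), and against 3 reads over the HQHF group it was at least 112-fold lower with HQHF. That bound rests on HFD 1, and without that library it was 12.7-fold.

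Cxcl9 and Cxcl10 are interferon-induced ligands of Cxcr3 on T cells. Cxcl10 stood at 2.07, 1.95 and 2.44 CPM in control, 20.9, 7.68, 4.12 and 3.08 in HFD, and 1.67, 3.39 and 1.86 with HQHF. All HFD libraries were above all controls, and HFD plus HQHF 2 lay above HFD 4. Cxcl10 rose by 2.05 ± 0.62 on the log2 scale (edgeR adjusted p = 0.0363), but by 1.21 without HFD 1, which did not pass (adjusted p = 0.051), and with HQHF its log2 fold change was -1.95 ± 0.62 (adjusted p = 0.0512). The rise was also lost without any 1 of the controls, HFD 2, or HFD plus HQHF 1 or 4, at up to 2.14. Cxcl9 was at 2.36 ± 0.278 CPM in control, 7.67 ± 6.59 in HFD and 2.96 ± 2.05 with HQHF (SD, n = 3, 4 and 3) and passed in neither comparison.

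The promoters of Cxcl1, Cxcl2 and Cxcl10 are shown because they share a stretch, GGAANTTCC, that few promoters hold. The sequences are the 250 bases before the start of each gene, from RefSeq on build GRCm38.p6, read 5′ to 3′ on the gene's strand, with the stretch in capitals. The submitters' processing notes name another build, GRCm39, for the counts.
Cxcl1, chr5:90890995-90891244 (+): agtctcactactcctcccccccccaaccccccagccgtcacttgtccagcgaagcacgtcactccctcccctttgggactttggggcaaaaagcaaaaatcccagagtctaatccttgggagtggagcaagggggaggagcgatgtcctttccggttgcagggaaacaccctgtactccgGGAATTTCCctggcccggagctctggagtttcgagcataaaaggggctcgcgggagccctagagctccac
Cxcl2, chr5:90903649-90903898 (+): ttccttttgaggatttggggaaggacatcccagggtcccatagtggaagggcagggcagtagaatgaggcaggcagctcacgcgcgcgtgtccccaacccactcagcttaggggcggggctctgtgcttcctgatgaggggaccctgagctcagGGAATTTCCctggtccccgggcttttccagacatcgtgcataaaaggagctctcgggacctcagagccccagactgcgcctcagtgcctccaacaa
Cxcl10, chr5:92348890-92349139 (-): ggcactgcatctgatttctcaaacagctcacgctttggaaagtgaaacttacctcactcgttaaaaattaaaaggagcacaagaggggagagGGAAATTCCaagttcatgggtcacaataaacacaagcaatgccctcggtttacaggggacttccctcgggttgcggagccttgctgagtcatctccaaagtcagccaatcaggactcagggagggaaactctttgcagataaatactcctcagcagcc

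The stretch ends 62 bases before the start of Cxcl1, 88 before that of Cxcl2 and 150 before that of Cxcl10. It has the form of a site for the NF-kB family of transcription factors and reads the same on both strands. It was chosen after the sequences were seen. Of 40 members with a promoter in the table, 7 hold it (Ccl1, Ccl12, Ccr3, Cxcl1, Cxcl2, Cxcl3 and Cxcl10), that is 17.5%, beside 0.944% of 27025 genes. Of these 7, Ccl1, Ccl12 and Cxcl3 had too few reads to be tested here. A looser pattern of the same kind, GGG and CC with any 5 bases between them, searched on both strands, is in 24 of the 40 (60%) and in 48.7% of all genes. A match describes the letters only, and binding was not measured here.

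Cxcl14 and Cxcl16 are ligands outside the inflammatory core. Cxcl14, a CXC ligand of epithelial cells, stood at 0.735, 1.54 and 1.24 CPM in control, 3.82, 2.76, 5.31 and 4.59 in HFD, and 2.01, 1.15 and 1.10 with HQHF (HFD plus HQHF 1, 2 and 4). HFD lay above both other groups without overlap, with a log2 fold change of 1.81 ± 0.36 and then -1.54 ± 0.35 (edgeR adjusted p = 0.00731 and 0.0165). The fall did not pass without HFD plus HQHF 2 or 4 (-1.40 and -1.38). Cxcl16, the membrane-bound ligand of Cxcr6, stood at 9.51, 8.61 and 9.04 CPM in control, 25.4, 14.5, 12.3 and 23.1 in HFD, and 10.5, 9.05 and 7.82 with HQHF. HFD lay above the control and HFD plus HQHF libraries, which overlapped. Cxcl16 rose by 1.06 ± 0.25 and fell by 1.05 ± 0.25 with HQHF on the log2 scale (edgeR adjusted p = 0.0135 and 0.0183). The rise did not pass without control 3 (0.95), nor the fall without any 1 of the HFD plus HQHF libraries (-1.15 to -0.94). Its receptor gene Cxcr6 gave 0.85 ± 0.65 and -0.89 ± 0.65 and passed in neither comparison.

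Cxcl13, the Cxcr5 ligand that draws B cells, went the other way. It stood at 6.15, 3.02 and 2.16 CPM in control, 0.530, 0.533, 0.784 and 0.103 in HFD, and 1.87, 2.03 and 1.18 with HQHF. The 3 groups did not overlap, and control 1 was the highest. Cxcl13 fell by 2.95 ± 0.56 in HFD and rose by 1.80 ± 0.55 with HQHF on the log2 scale (edgeR adjusted p = 0.00659 and 0.0453). The rise with HQHF passed under 8 of 19 alternative settings, and it was lost without any 1 of control 3 or 4, HFD 1 or 2, or HFD plus HQHF 1, 2 or 4, at 1.65 or more. Cxcl12, the constitutive ligand of Cxcr4, stood at 319, 348 and 308 CPM in control, 191, 202, 189 and 376 in HFD, and 374, 414 and 283 with HQHF. HFD 4 lay among the other groups, and the other HFD libraries lay below them. Its log2 fold changes of -0.44 ± 0.26 and 0.58 ± 0.26 did not pass (edgeR adjusted p = 0.223 and 0.131). Without HFD 4 they were -0.74 and 0.88 and passed (adjusted p = 0.0222 and 0.0173). With library totals the first was 0.15, so its direction depends on the scaling.

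**Figure D2:**
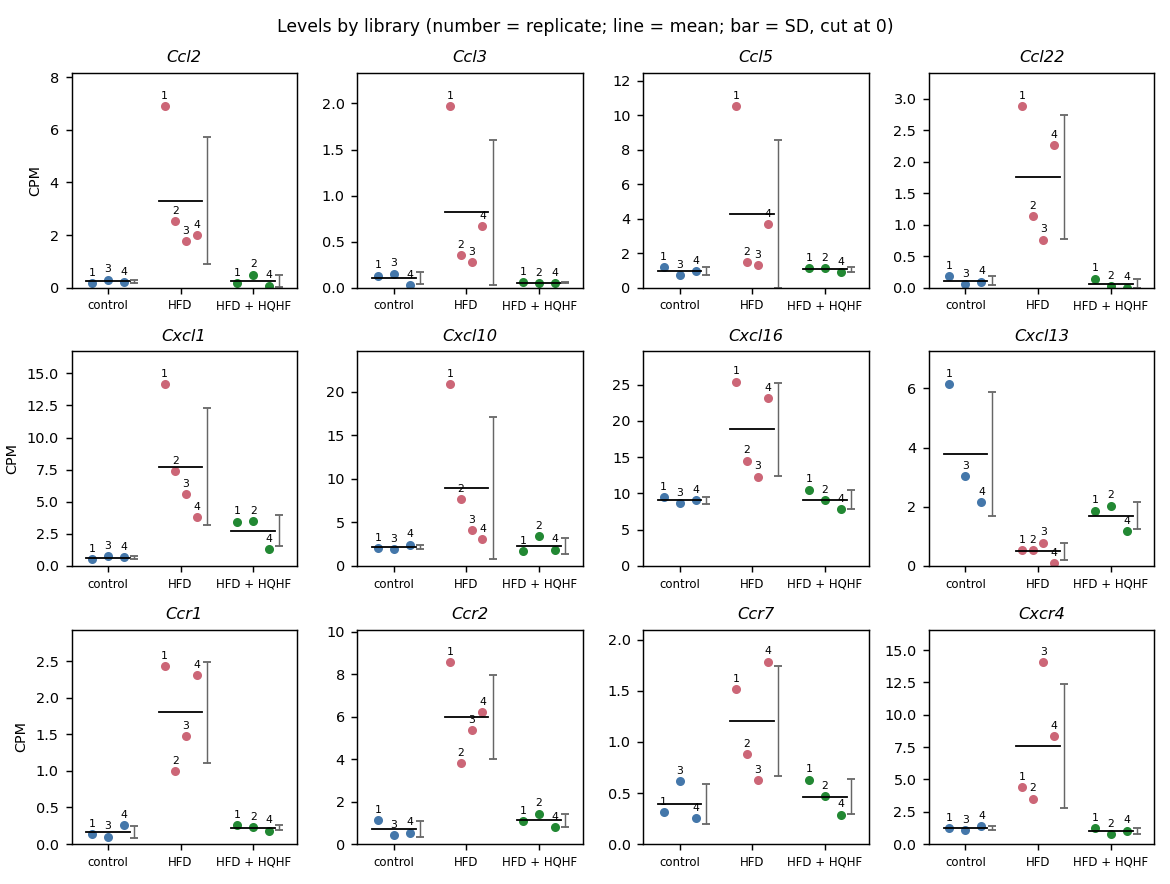
CPM (y axis, linear from 0, own scale for each gene) of 12 members in each of the 10 libraries, grouped as control, HFD and HFD plus HQHF, with the replicate number over each point, a line at the mean and the SD as a bar. Ccl2, Ccl3, Ccl5, Ccl22, Cxcl1, Cxcl16, Ccr1, Ccr2 and Cxcr4 have all 4 HFD libraries above all others, by little in Ccl5 and Cxcl1. HFD 1 is high in Ccl2, Ccl3, Ccl5, Cxcl1 and Cxcl10, and Cxcl13 is lowest in HFD.

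Among the receptors, Ccr1, Ccr2 and Cxcr4 changed in both comparisons. Ccr2 (ENSMUSG00000049103), the Ccl2 receptor of monocytes, stood at 1.13, 0.436 and 0.539 CPM in control 1, 3 and 4, at 8.57, 3.81, 5.35 and 6.22 in HFD 1 to 4, and at 1.09, 1.43 and 0.811 in HFD plus HQHF 1, 2 and 4. HFD lay above both other groups, which overlapped. Its log2 fold change was 3.08 ± 0.41 and then -2.43 ± 0.40 (edgeR adjusted p = 0.0021 and 0.0058). Ccr1, a myeloid receptor for Ccl3 and Ccl5, stood at 0.131, 0.103 and 0.254 CPM in control, 2.43, 0.993, 1.47 and 2.30 in HFD, and 0.258, 0.235 and 0.183 with HQHF. It showed the same order, with HFD apart, a log2 fold change of 3.47 ± 0.49 and then -2.98 ± 0.47 (edgeR adjusted p = 0.00261 and 0.00507). Cxcr4, the Cxcl12 receptor of leukocytes and other cells, stood at 1.23, 1.05 and 1.40 CPM in control, 4.40, 3.51, 14.1 and 8.32 in HFD, and 1.21, 0.782 and 1.05 with HQHF. Here HFD 3 was highest, not HFD 1. Cxcr4 had a log2 fold change of 2.63 ± 0.46 and then -2.90 ± 0.47 (edgeR adjusted p = 0.00545 and 0.00581). These 3 receptors, with Ccl2 and Ccl22, kept both calls under each of 18 alternative settings and lost them only in the fit of all 12 libraries. Among them, Ccl2, Ccl22 and Ccr1 had passed the filter only through HFD libraries, and Ccr2 and Cxcr4 had not needed them.

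Cxcr2, the neutrophil receptor for Cxcl1, Cxcl2 and Cxcl5, stood at 0.368, 0.410 and 0.349 CPM in control, 2.21, 1.47, 0.627 and 0.774 in HFD, and 0.804, 1.12 and 0.549 with HQHF. Control lay below both other groups, which overlapped. Its log2 fold changes were 1.75 ± 0.50 and -0.62 ± 0.47 (edgeR adjusted p = 0.0282 and 0.367), and the first did not pass without any 1 of the controls or HFD 1 (1.35 to 1.75).

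Ccr7, the receptor for Ccl19 and Ccl21, stood at 0.315, 0.615 and 0.254 CPM in control, 1.52, 0.882, 0.627 and 1.79 in HFD, and 0.632, 0.469 and 0.288 with HQHF. HFD 3 was just above the highest control and just under HFD plus HQHF 1. The log2 fold changes were 1.59 ± 0.51 and -1.38 ± 0.50 (edgeR adjusted p = 0.0412 and 0.0747), and the first did not pass without any 1 of the controls, HFD 1 or 4, or HFD plus HQHF 1 or 2 (1.34 to 1.99). Ccr3, the eosinophil receptor, had 3 reads in the controls together and 10 to 24 in each HFD library, a ratio of 9.45 with a counting interval (95%, exact) of 3.08 to 47.2 (edgeR adjusted p = 0.0179), which did not pass without control 3 or 4 (adjusted p = 0.0751 and 0.0587) and whose fitted log2 fold change moved from 3.12 to 3.95 without control 1. With HQHF it had 3 to 8 reads per library, and its log2 fold change against HFD was -0.82 ± 0.62. Ccr9, Cxcr3, Cxcr5 and Xcr1 passed in neither comparison, with log2 fold changes of 0.38 to 1.17 in HFD and -1.08 to 0.02 with HQHF.

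The members also differed in which HFD library was highest. HFD 1 had the highest value of the 4 HFD libraries in 20 of the 37 members (54.1%) and in 11 of the 25 that did not need HFD libraries to pass the filter, beside 19.4% of all genes tested, and in 16 of 25 ligands. HFD 4 was highest in 7 of 12 receptors (58.3%), beside 28.9% of all genes. The ligand count includes Ccl2, Ccl3, Ccl4, Ccl7, Ccl22, Ccl28, Cxcl2 and Cxcl5, which passed the filter only through HFD libraries. The receptor count includes Ccr3 and Ccr9, which also passed only that way. Whether ligands and receptors differ in this was not tested. Tnf, an inducer of many chemokines that was picked after its values were seen, was at 5.24 CPM in HFD 1 and 0.647 to 1.32 CPM in HFD 2 to 4. Monocyte markers were highest in HFD 4, at 731 CPM summed, beside 463 in HFD 1. That list holds Spp1, which is also in the list of cholangiocyte markers given below.

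**Figure D3:**
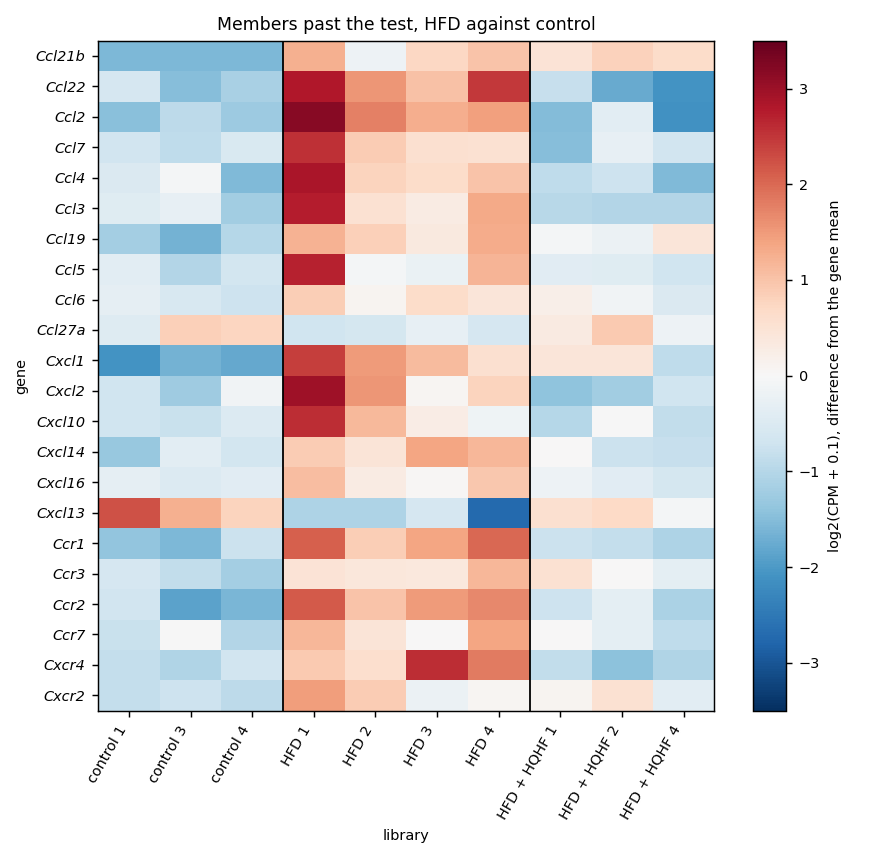
Colour gives log2(CPM + 0.1) of 22 of the 23 members called in HFD against control (rows), as the difference from the gene's mean over the 10 libraries (columns, with lines between groups). The HFD columns are red for 20 genes on the whole and the column of HFD 1 is darkest for most ligands, while Ccl27a and Cxcl13 are blue in HFD.

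HFD plus HQHF against control gave no call among the 37 members or among all 13832 genes (edgeR quasi-likelihood test, 0% in either direction). At an unadjusted p under 0.05 it gave 5 members and 1008 genes, and DESeq2 called 2 members higher, Ccl21b and Cxcl1, beside 46 of all genes (0.333%). Among the members with the smallest p were Ccl21b (at least 13.3-fold higher, adjusted p = 0.228), Cxcl1 (log2 fold change 2.09 ± 0.52, edgeR adjusted p = 0.464), Ccl19 (1.72 ± 0.46, adjusted p = 0.509) and Ccr3 (a ratio of 5.20, interval 1.49 to 27.8, adjusted p = 0.643). All 3 HFD plus HQHF libraries lay above all 3 controls in 6 members, these and Cxcr2 among them (8.4% of all genes), and below them in Cxcl13 (6.72%). Ccl21b summed with its copies gave -0.33 ± 0.54. Ccl2 (0.07 ± 0.74), Ccl3 (-0.97 ± 1.00), Ccl5 (0.16 ± 0.71), Ccr2 (0.66 ± 0.42), Cxcr4 (-0.28 ± 0.48) and Cxcl12 (0.14 ± 0.28) did not pass, with an SE from 0.28 to 1.00. The direction of Ccl2, Ccl5 and Cxcr4 changed under other settings, so these data do not show that the groups were alike. The median log2 fold change was 0.14 over the 37 and 0.28 over the 25 that did not need HFD libraries to pass the filter, beside 0.02 over all genes.

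Several members are neighbours in the mouse genome by the RefSeq table of GRCm38.p6. They form 9 clusters, of which those of Ccl2 and of Ccl5 are given here, and not every cluster was uniform. In the cluster of Ccl2, Ccl7, Ccl11, Ccl12, Ccl8 and Ccl1, the 2 genes that could be tested both rose and both fell with HQHF. In that of Ccl5, Ccl9, Ccl6, Ccl3 and Ccl4, all but Ccl9 rose and only Ccl3 and Ccl4 fell, with log2 fold changes from -4.10 to 0.16 with HQHF. Over all genes tested, 16.3% rose in HFD and 11.1% fell with HQHF. Ccl2, Ccl7, Ccl3 and Ccl4, the genes that fell here, had all passed the filter only through HFD libraries.

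Related genes outside the family were taken as lists, chosen with earlier results of these data known. How many of their genes passed the filter only through HFD libraries was not examined. Over all genes tested, 16.3% rose and 9.89% fell in HFD, and 7.85% rose and 11.1% fell with HQHF. Of 7 genes for atypical receptors and the CX3C pair, 3 rose in HFD and 3 fell with HQHF. The fractalkine receptor Cx3cr1 of monocytes gave 4.68 ± 0.59 and -3.26 ± 0.53 on the log2 scale (edgeR adjusted p = 0.0017 and 0.00622), and its ligand Cx3cl1 gave 3.64 ± 0.59 and -3.14 ± 0.57 (adjusted p = 0.00408 and 0.00832). Of 18 genes that carry the receptors' signal, 11 rose and 6 fell, among them Elmo1 (1.40 ± 0.28 and -1.39 ± 0.28) and its partner Dock2 (1.24 ± 0.26 and -0.99 ± 0.26), which drive Rac in migrating leukocytes. Of 12 leukocyte adhesion genes, 9 rose and 7 fell, among them the integrin chain Itgb2 (1.65 ± 0.26 and -1.34 ± 0.25), Sele, the E-selectin of activated endothelium (4.07 ± 0.65 and -3.88 ± 0.64), and P-selectin, Selp (1.76 ± 0.30 and -1.79 ± 0.30). Of 16 tested genes for inducers of chemokines (21 listed), 6 rose and 5 fell, among them Relb, an NF-kB subunit (2.45 ± 0.25 and -2.14 ± 0.24), and Tnfaip3, an NF-kB target that limits it (1.82 ± 0.30 and -1.94 ± 0.30). No gene of these lists passed in HFD plus HQHF against control, where no gene of all those tested passed. The median log2 fold changes of the 4 lists were 1.08, 0.82, 1.52 and 0.51 in HFD against control, beside 0.06 over all genes.

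Markers of several cell types moved with the chemokine genes. Over all genes tested, 16.3% rose and 9.89% fell in HFD, and 7.85% rose and 11.1% fell with HQHF. The list of 9 genes of monocytes and recruited macrophages summed to 73.7 to 105 CPM in control, 239 to 731 in HFD and 77.5 to 103 with HQHF, and 8 of 9 rose in HFD and 7 of 9 fell with HQHF. The 6 tested neutrophil genes all rose in HFD and none passed with HQHF. That list summed to 5.97 to 9.74 CPM in control, 92.4 to 205 in HFD and 8.71 to 394 with HQHF, and Lcn2, which hepatocytes also make, was 388 CPM of the highest sum, while Ly6g, the defining neutrophil marker, had no read in 8 of the 10 libraries. Of 7 Kupffer cell genes, 4 fell in HFD and 4 rose with HQHF, with sums of 271 to 358, 185 to 318 and 304 to 479 CPM. Of 11 genes of T and NK cells, 2 rose and none passed with HQHF, with overlapping sums of 43.5 to 141, 59.7 to 84.7 and 58.8 to 186 CPM. Of 7 stellate cell genes 6 rose and 5 fell, of 6 dendritic cell genes 3 rose and 3 fell, and of 8 hepatocyte genes 5 fell and 4 rose with HQHF. None of 6 B cell genes and 1 of 7 endothelial genes rose. The 1 of 7 and the 2 of 11 T and NK cell genes lie near the share over all genes. Of 4 mesothelial genes 2 rose and 3 fell, with sums of 0.381 to 0.820, 2.87 to 3.94 and 0.0861 to 0.941 CPM, and of 6 cholangiocyte genes 2 rose and 2 fell, with sums of 23.5 to 28.3, 20.3 to 385 and 19.3 to 28.3 CPM, highest in HFD 4. Spp1 is in both the monocyte and the cholangiocyte list, so their sums and counts are not separate. In HFD plus HQHF 1, 3 of the 4 mesothelial genes had no read. How many genes of these lists passed the filter only through HFD libraries was not examined, and the lists were chosen with earlier results of these data known. The part of these cell types in the chemokine results was not tested.

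**Figure D4:**
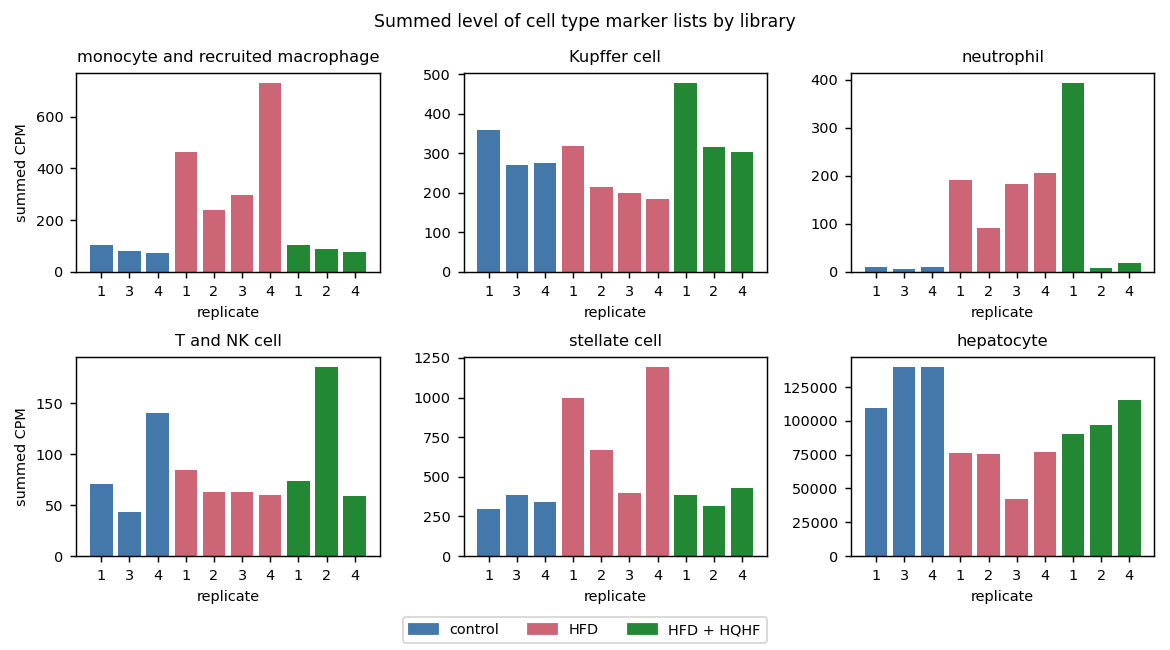
Summed CPM (y axis, linear from 0) of 6 cell type marker lists in each of the 10 libraries (bars, coloured by group, numbered by replicate). The monocyte and macrophage sum is 239 to 731 CPM in HFD and at most 105 CPM elsewhere, while the neutrophil sum is highest in HFD plus HQHF 1 at 394 CPM.

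Counts of member calls moved with single libraries, and so did calls over all genes. Members higher in HFD numbered 21, and without control 1, 3 or 4 they numbered 12, 10 and 12, where 6.68%, 6.05% and 8.37% of all genes were called higher. Members lower with HQHF numbered 12, and without HFD plus HQHF 1, 2 or 4 they numbered 6, 5 and 6, where 2.47%, 2.81% and 6.02% of all genes were called lower. Without HFD 1, the highest library for most ligands, the counts were 14 and 10, beside 12.7% and 7.48% of all genes. Without control 1 and HFD 3 together, the libraries with the most acinar and adipocyte markers, they were 16 and 16, beside 10.4% and 13.8%. With library totals they were 28 and 22, beside 50.9% and 47.0% of all genes. In that setting 97.9% of the calls over all genes were higher in HFD, beside 62.3% with TMM, and 2.07% were higher with HQHF, beside 41.5%.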

How the data were processed

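The authors deposited whole-number read counts per gene for 12 long RNA libraries, made from TRIzol-extracted total RNA with a stranded, ribosome-depleted kit per the labels' protocols. The submitters' processing notes name HISAT2, RSEM and GRCm39, with no version or role; the counting settings, strand included, are not given in the sources used. The deposited miRNA counts were not used here. The model was edgeR 4.0.16 on R 4.3.3 (filterByExpr by group, TMM, robust glmQLFit and glmQLFTest, a single model for 3 groups and 10 libraries), with Benjamini-Hochberg adjustment over 13832 genes and calls at an adjusted p under 0.05, two-sided. The SE of a log2 fold change is its size over the square root of F. DESeq2 1.42.0 was an alternative, and figures came from Python 3.11.15 with matplotlib 3.10.9, numpy 2.4.6 and pandas 2.3.3.

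Groups came from the labels. Each library has its own batch code, so no batch term could be fitted. No library was a copy of another: the least different of 45 pairs had a chi-square of 60.2 per degree of freedom. Members, gene lists, the library set and tests were chosen with earlier results of these data known. Named genes were every called member, the 5 smallest p where fewer than 5 passed, always Ccl2, Ccl3, Ccl5, Cxcl1, Ccr2, Cxcr4 and Cxcl12, and the 2 smallest p of each related list. For leukocyte adhesion 1 more gene was named. Values by library were given for called members whose higher group averaged 1 CPM or more. A gene with 0 reads in a group has a bound, taken against 3 reads in that group as a whole, and one with 1 to 3 reads an exact 95% interval, both of counting error only. In data simulated for HFD against control over 13832 genes, the test found 38 of 100 genes changed 2-fold and 81 of 100 changed 4-fold, and called 6 unchanged genes. Only these genes were changed there, while 26.2% of all genes were called in the data, so the rates need not hold for the data. Alternatives were all 12 libraries, DESeq2, RLE scaling, library totals, no filter, 1 CPM in 3 libraries, a fit of 2 groups alone, a block on the replicate number, and leaving out each library. Results of 1 member are counted in the totals and not reported singly here. Added later were leaving out control 1 with HFD 3 and summing the Ccl21 copies.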

Additional observations from a re-analysis of the deposited data

Results flagged for a closer look

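In 7 of the 37 members tested (18.9%), 1 of the 4 HFD libraries stood far from the other 3 by Dixon's ratio, beside 8.09% of all genes tested, and chance gives about 1 in 20 groups. In HFD 1 these were Ccl2 at 6.90 CPM (1.78 to 2.52 in the others), Ccl4 at 2.03 (0.353 to 0.481), Ccl7 at 1.57 (0.309 to 0.423), Ccl28 at 1.53 (0.165 to 0.275) and Cxcl5 at 11.1 CPM (0.239 to 0.516). In HFD 4 they were Ccr3 at 0.413 CPM (0.196 to 0.219) and Cxcl12 at 376 CPM (189 to 202). All of these but Cxcl12 had passed the filter only through HFD libraries. Cxcl12 was thus the only case among the other 25 members, so the share over the 37 rests on genes admitted by high HFD values.

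The 2 libraries left out of the comparisons stood above all 10 others in some members, on the scale of library totals, in a smaller share of them than of all 18314 genes listed. Control 2 did so in 20 of the 53 members (37.7%), beside 46% of all genes, and HFD plus HQHF 3 in 15 (28.3%), beside 39.5%. Summed, the members came to 1365 CPM in the first of these and 396 CPM in the second, and to 288 to 641 CPM in the 10 libraries. For Ccl6 the values were 573 and 83.6 CPM in that order, where no library of the 10 exceeded 24.8 CPM. Ccl11 had 2213 and 387 reads there, and Ccl8, a Ccr2 ligand, 1542 and 215.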

How the results depend on the processing

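With all 12 libraries no member was called: 0 higher and 0 lower in HFD, and 0 and 0 with HQHF. Over the 13929 genes of that fit, 7 were higher and 0 lower in HFD, and 0 and 1 with HQHF. That fit turned the direction in HFD against control of Ccr2 (-1.06), Ccr1 (-0.67), Ccl6 (-2.52), Ccr3 (-2.97) and Ccl7 (-0.10), of Ccl7 with HQHF against HFD (0.13), and in HFD plus HQHF against control of Ccr3 (-3.94), Ccr2 (-1.61) and Ccl2 (-1.21). The cause was not tested, and control 2 and HFD plus HQHF 3, which that fit adds, had far lower hepatocyte markers. Leaving out single libraries gave 10 to 22 members higher and 1 to 3 lower in HFD. The shares of all genes were then 6.05% to 17.2% and 4.34% to 11.2%. With HQHF the members numbered 0 to 2 higher and 5 to 17 lower, beside 1.97% to 9.98% and 2.47% to 14.2% of all genes. HFD plus HQHF against control gave 0 to 0 members in either direction, and no gene of all those tested was called there. Members lower in HFD numbered 1 with library totals, with no filter and with the filter of 1 CPM in 3 libraries. The shares of all genes were 1.11%, 6.62% and 9.53% in that order. Members higher with HQHF numbered 3 with DESeq2 and without control 1 and HFD 3, beside 12.7% and 9.77% of all genes. They numbered 0 with library totals, with no filter and with only the 2 groups compared, beside 0.990%, 5.07% and 7.41%. Members lower with HQHF numbered 22 with library totals, beside 47.0% of all genes. DESeq2 called 2 members higher in HFD plus HQHF against control, beside 0.333% of all genes.

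Library totals turned Cxcl12 in HFD against control (0.15). In HFD plus HQHF against control, Ccl2 was -0.09 without control 1 (-0.093 with HFD 3 left out too) and -0.92 to 0.49 over the libraries left out singly, Ccl5 was -0.021 without control 3 and 0.35 without control 1, and the summed Ccl21 copies gave -0.33, beside 0.67 in HFD against control.

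Replicate numbers are shared between groups but did not pair the libraries: deviations of same-numbered libraries correlated at -0.054 to 0.119 over 8 pairs, with 1 over 0.1, and 4 of 10 libraries correlated best with their own number. With the replicate number as a block, 17 members were higher and 1 lower in HFD, beside 13.6% and 6.88% of all genes. With HQHF 1 was higher and 13 lower, beside 4.64% and 7.79%. In HFD plus HQHF against control Cxcr4 was then 0.15 and Ccl2 -0.41. RLE scaling kept all 23 and 13 calls, where 15.8% of all genes were higher and 11.7% lower in HFD, and 9.43% and 10.3% with HQHF. Members with few reads, such as Ccl4 with 5 reads over the HFD plus HQHF group, are limited by depth.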
